A study of Saccharomyces cerevisiae with 96 samples.

Results

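The 32 subunit genes of the yeast proteasome and RPN4, the gene of the transcription activator that drives them, were followed over 60 min after transcription was blocked with thiolutin. Members were the genes of the complex that the array annotation gave a probe set of their own: 33 of the 5656 genes so named, with 38 of the 9275 probe sets tested. RPT5 had 4 probe sets, PRE3 had 3 and every other member had 1. Log2 expression was measured on 96 Affymetrix arrays from 2 strains, with 3 time courses per strain and 16 times per course. The Nmd- strain (YRZ1) lacks nonsense-mediated mRNA decay because UPF1 is replaced by KanMX4. The Nmd+ strain (S288C) is the congenic wild type. All cultures, those of the wild type included, received thiolutin, at 10 μg/ml by the labels of 90 arrays and 14 by those of the 6 arrays titled 4 min, and no culture was left untreated over the hour. Each strain was a single strain grown in mid-log phase, and the 3 courses were independent trials. RNA came from whole cultures, in which a change in some cells and a smaller change in all cells cannot be told apart.

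The proteasome is the protease that degrades proteins tagged with ubiquitin. Its barrel-shaped core has outer alpha rings, which gate the entrance, and inner beta rings, which hold the active sites. A cap, the regulatory particle, consists of a base, where ATPases unfold the substrate, and a lid, where Rpn11 removes the ubiquitin. Rpn4 binds a shared promoter element upstream of most of these genes and is itself degraded by the proteasome, so that in yeast the supply of proteasomes feeds back on their own transcription. Thiolutin stops RNA synthesis and, by binding zinc, also inhibits Rpn11, and the question asked of these data was whether proteasome mRNAs rose in its presence.

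Some arrays stood apart. UPF1 and KanMX4 were on the side of the label on 90 of 96 arrays. The exceptions were the Nmd- course 1 arrays titled 10, 40, 45 and 50 min, the Nmd+ course 1 array titled 20 min and the Nmd+ course 3 array titled 60 min. Both markers were against the label on these Nmd- arrays. On the Nmd+ arrays titled 20 and 60 min UPF1 was on its side (6.27 and 5.43) and KanMX4 alone was against it (8.28 and 11.28). A score was made as the main axis of change of the 924 probe sets that varied most over the mean Nmd+ course. The proteasome genes were left out of it. The score rose with the titled time in the Nmd+ courses (Spearman rho 1.0, 0.98 and 0.94 over the 16 arrays of each). In the Nmd- courses it rose less closely (0.41, 0.66 and 0.74). Because the score was drawn from the Nmd+ courses themselves, their higher correlations do not measure a difference between the strains. In all 3 Nmd- courses the arrays titled 2, 6, 10 and 15 min scored above those of the next titled times, 4, 8, 12 and 20 min. The arrays titled 2 min, with scores of -0.13, -0.46 and -0.53 against -0.88, -0.68 and -1.11 at 0 min, are part of the baseline of every Nmd- change below. The titles were kept, and why the order differs was not tested. The deposited values make all arrays alike in overall level (array medians 5.86 to 6.08), so every change below is relative to the average RNA of the culture. A gain of transcript and a slower loss than the average cannot be told apart.

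RPN4 (probe set 6487_at) was high at the end of the course in both strains. In the Nmd- courses it had log2 values of 7.93, 7.44 and 7.42 at 0 min, 9.63, 8.40 and 9.21 at 6 min, 7.23, 7.35 and 7.81 at 8 min, 8.02, 9.51 and 8.97 at 10 min, and 7.14, 7.63 and 7.84 at 12 min. Later in the Nmd- courses RPN4 had 7.29, 6.81 and 8.28 at 20 min, 9.54, 8.66 and 9.31 at 30 min, and 9.18, 9.13 and 8.92 at 60 min. RPN4 therefore swung up and down between neighbouring titled times in all 3 Nmd- courses before 20 min, and from 30 min on only course 1 fell back under its value at 0 min, with 7.55 and 7.55 at 40 and 45 min, and stood at 8.11 at 50 min, on the arrays whose UPF1 and KanMX4 values went against the label. In the Nmd+ courses RPN4 had 7.81, 7.76 and 7.44 at 0 min, 7.46, 6.79 and 8.77 at 8 min, 8.53, 7.97 and 9.13 at 12 min, 9.38, 8.48 and 9.34 at 20 min, 9.21, 9.57 and 9.40 at 35 min, and 8.70, 8.90 and 9.18 at 60 min. All 3 Nmd+ values of RPN4 lay above all 3 of 0 min at every time from 12 min on, whereas the Nmd- values did so at 6, 10, 15, 30, 35, 50 and 60 min.

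**Figure D1:**
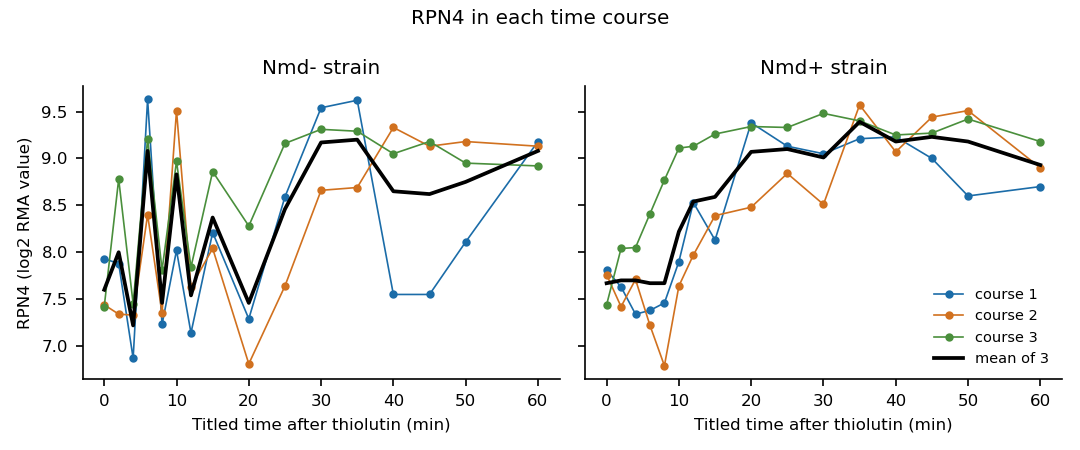
RPN4 log2 RMA value (y axis) against the titled time after thiolutin in minutes (x axis), Nmd- left and Nmd+ right. Thin lines are the 3 courses and the thick line is their mean. The Nmd+ courses climb to between 9.21 and 9.57 at 35 min, and the Nmd- courses swing between neighbouring times up to 20 min.

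The highest RPN4 value of a Nmd- course stood 1.69, 2.07 and 1.89 log2 units over its value at 0 min (3.24-, 4.21- and 3.70-fold), at titled times of 6, 10 and 30 min. In the Nmd+ courses the highest value stood 1.57, 1.81 and 2.04 over 0 min (2.96-, 3.51- and 4.10-fold), at 20, 35 and 30 min. The size of the excursion overlapped between the strains and its titled time did not settle in the Nmd- strain. The mean change from one array to the next was 1.06, 0.72 and 0.76 log2 units in the Nmd- courses against 0.30, 0.44 and 0.18 in the Nmd+ courses. Set against the score in place of the titled time, RPN4 had rank correlations of 0.87, 0.88 and 0.73 in the Nmd- courses, where its correlations with the titled time were 0.29, 0.65 and 0.55.

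For the tests, each course gave 1 value per window, the mean of 3 times minus the mean of 0 and 2 min, and limma compared the 6 courses with a two-sided test. A call required a Benjamini-Hochberg adjusted p under 0.05 over all 9275 probe sets and at least 1.5-fold. Late (45, 50 and 60 min), RPN4 averaged 8.28, 9.15 and 9.02 in the Nmd- courses against 7.91, 7.39 and 8.10 at 0 and 2 min, and 8.77, 9.28 and 9.29 in the Nmd+ courses against 7.72, 7.59 and 7.74. RPN4 rose 2.02-fold in the Nmd- strain (log2 change 1.02, SE 0.25, n = 3 courses, limma adjusted p = 0.0241) and 2.69-fold in the Nmd+ strain (1.43, SE 0.25, n = 3, limma adjusted p = 0.00443). Late and baseline values of RPN4 did not overlap in either strain, but the gap was narrow in the Nmd- strain, where course 1 reached 8.28 late and course 3 had started at 8.10. Without the arrays whose markers went against the label, the Nmd- rise of RPN4 was 1.31 log2 units (adjusted p = 0.00318 by limma). Without Nmd- course 2 it was 0.64 (adjusted p = 0.107) and without Nmd- course 3 it was 1.07 (adjusted p = 0.0775). The strains did not differ detectably in the late change of RPN4 (Nmd- minus Nmd+ -0.41, SE 0.36, limma adjusted p = 0.658).

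The subunit genes as a group also ended high. Late, 16 of the 38 probe sets rose in the Nmd- strain and none fell, where 9.97% of all probe sets rose and 11.1% fell. In the Nmd+ strain 15 rose and none fell, where 11.1% of all rose and 14.3% fell, and by the adjusted p alone 27 rose, beside 13.7% of all. The median late change over the 38 was 0.54 in the Nmd- strain and 0.55 in the Nmd+ strain, beside 0.02 in the Nmd- strain and 0.05 in the Nmd+ strain over all probe sets. All 3 courses were above 0 for 35 of the 38 in each strain, which was so for 29.7% of all probe sets in the Nmd- strain and 33.6% in the Nmd+ strain. All 3 were below 0 for none of the members in the Nmd- strain and 1 in the Nmd+ strain (27.9% and 28.6% of all). The called probe sets included 12 that were called in both strains (PRE1, 2 of PRE3, RPN4, RPN5, RPN6, RPN8, RPN9, RPN11, RPN12, RPT2 and RPT3). PRE9, RPN3 and 2 of RPT5 passed only in the Nmd- strain and PRE2, 1 of PRE3 and RPT1 only in the Nmd+ strain. None of the 38 late changes differed between the strains by limma (3 at an unadjusted p under 0.05, all of them RPT5 probe sets), and over all probe sets 0% did in either direction and 12% had an unadjusted p under 0.05. The median change was positive in each course, 0.40, 0.55 and 0.65 in the Nmd- courses and 0.45, 0.48 and 0.78 in the Nmd+ courses. Without the arrays whose markers went against the label, 23 rose in the Nmd- strain and 17 in the Nmd+ strain. Over all 9275 probe sets 1300 rose in the Nmd- strain and 980 in the Nmd+ strain in that fit. Without the Nmd- arrays titled 2, 6 and 10 min 16 members rose in the Nmd- strain, beside 1325 of all probe sets. With 0 min alone as baseline 13 rose in the Nmd- strain, 12 of them among the 16, where 1229 of all probe sets rose. The Nmd- count was 6 without course 2 and 6 without course 3 of that strain, and the Nmd+ count was 5 without course 2 and 4 without course 3. Over all probe sets these counts were 544, 366, 682 and 654.

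**Figure D2:**
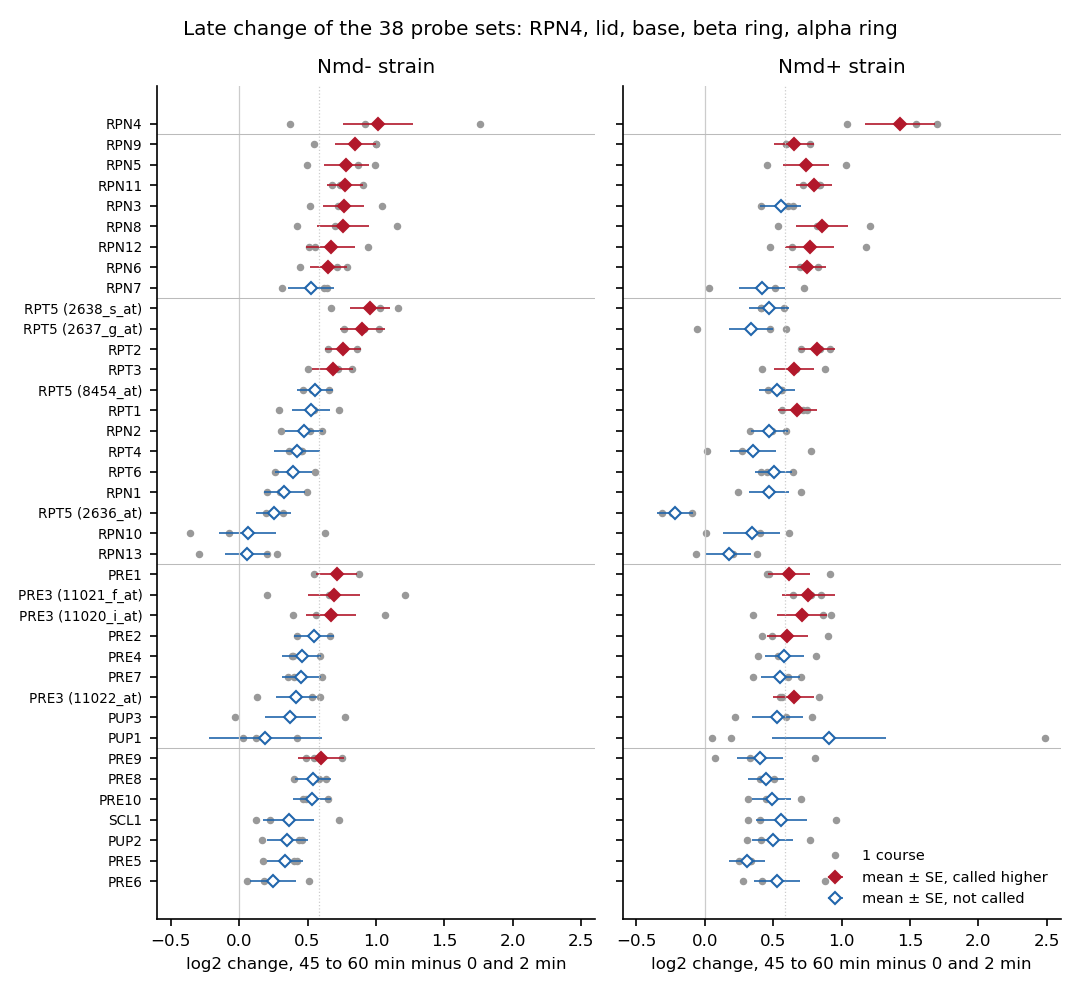
Late log2 change (45, 50 and 60 min minus 0 and 2 min, x axis) of the 38 probe sets (y axis, by subcomplex), Nmd- left and Nmd+ right. Small points are courses, diamonds are means with the SE of the fit, filled where called, and the dotted line marks 1.5-fold. Nearly all means lie right of 0 and the lid (RPN9 to RPN7) holds the most filled diamonds.

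The lid had the most calls in both strains. It rose for 7 of 8 probe sets in the Nmd- strain, beside 9.97% of all probe sets. In the Nmd+ strain it rose for 6 of 8, beside 11.1% of all. Its median log2 changes were 0.76 in the Nmd- strain and 0.74 in the Nmd+ strain. RPN11, the gene of the zinc protease that thiolutin inhibits, averaged 9.10, 9.17 and 9.44 late in the Nmd- courses against 8.43, 8.43 and 8.53 at 0 and 2 min, and 9.30, 9.42 and 9.59 against 8.59, 8.58 and 8.75 in the Nmd+ courses. The late and baseline values of RPN11 did not overlap in either strain, and the rise was 1.71-fold in the Nmd- strain (log2 change 0.77, SE 0.13, n = 3, limma adjusted p = 0.00697) and 1.74-fold in the Nmd+ strain (0.80, SE 0.13, n = 3, limma adjusted p = 0.00305). RPN8, the inactive partner with which Rpn11 forms a dimer, had the highest lid mean over both strains, with late values of 7.94, 8.42 and 8.71 in the Nmd- courses against 7.52, 7.26 and 8.01, and of 7.93, 8.75 and 9.00 in the Nmd+ courses against 7.39, 7.93 and 7.79. Its courses were spread so widely that late and baseline values touched in both strains, but each course rose on its own, by 0.42, 1.16 and 0.70 in the Nmd- strain and by 0.54, 0.82 and 1.21 in the Nmd+ strain (limma adjusted p 0.0238 in the Nmd- strain and 0.0113 in the Nmd+ strain). RPN6, whose product clamps the lid onto the core, rose 1.57-fold in the Nmd- strain and 1.68-fold in the Nmd+ strain. RPN7, a structural lid subunit, had the lowest lid mean, at 0.53 (adjusted p = 0.0555) in the Nmd- strain and 0.42 (adjusted p = 0.0984) in the Nmd+ strain by limma.

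In the base, 4 of 13 probe sets rose in the Nmd- strain, beside 9.97% of all probe sets. In the Nmd+ strain 3 of 13 rose, beside 11.1% of all. The median change of the base was 0.47 in each strain. RPT2, an ATPase whose tail helps to open the gate of the core, averaged 7.19, 7.34 and 7.69 late in the Nmd- courses against 6.54, 6.57 and 6.83, and 7.25, 7.71 and 7.90 in the Nmd+ courses against 6.55, 6.80 and 7.06. The late values of RPT2 lay above the baseline values in both strains, at 1.69-fold in the Nmd- strain (SE 0.13 on the log2 scale, n = 3, limma adjusted p = 0.00759) and 1.77-fold in the Nmd+ strain (SE 0.13, n = 3, limma adjusted p = 0.0028). The 4 probe sets of RPT5, another ATPase of the ring, disagreed with each other. In the Nmd- strain RPT5 rose on 2638_s_at (log2 change 0.95, courses 1.03, 0.67 and 1.16) and on 2637_g_at (0.90, courses 1.02, 0.76 and 0.91), and stood at 0.55 on 8454_at and 0.25 on 2636_at. In the Nmd+ strain the same RPT5 probe sets stood at 0.47, 0.34, 0.53 and -0.22, and none was called. Suffixes such as s, g, i and f mark probe sets that depart from the standard design of probes unique to 1 transcript, and RPT5 2636_at averaged only 3.02 to 3.75 late in the Nmd- courses and 2.85 to 3.68 in the Nmd+ courses. The ubiquitin receptors of the base were not called: RPN10 was at 0.06 in the Nmd- strain (adjusted p = 0.857) and 0.34 in the Nmd+ strain (0.262), and RPN13 at 0.06 in the Nmd- strain (0.822) and 0.17 in the Nmd+ strain (0.467) by limma.

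In the beta ring 3 of 9 probe sets rose in the Nmd- strain, beside 9.97% of all probe sets. In the Nmd+ strain 5 of 9 rose, beside 11.1% of all. The medians were 0.46 in the Nmd- strain and 0.61 in the Nmd+ strain. The genes of the active sites were PRE3 (caspase-like), PUP1 (trypsin-like) and PRE2 (chymotrypsin-like). PRE3 rose on 2 of its 3 probe sets in the Nmd- strain and on all 3 in the Nmd+ strain. On 11021_f_at PRE3 averaged 8.67, 9.15 and 8.85 late in the Nmd- courses against 8.46, 7.94 and 8.19, and 8.96, 8.96 and 8.86 in the Nmd+ courses against 8.32, 8.18 and 8.01, with no overlap in either strain. By limma this was 1.62-fold in the Nmd- strain (adjusted p = 0.0342) and 1.69-fold in the Nmd+ strain (adjusted p = 0.0196). PRE2 averaged 10.28, 10.45 and 10.89 late in the Nmd- courses against 9.86, 9.90 and 10.23, and 10.45, 10.62 and 11.03 in the Nmd+ courses against 10.03, 10.13 and 10.13. It lay near the fold minimum in both strains, at 1.46-fold in the Nmd- strain (adjusted p = 0.0321) and 1.52-fold in the Nmd+ strain (adjusted p = 0.0174) by limma, and only the second was a call. PUP3, a beta subunit with no active site, had the lowest beta mean, at 0.37 (adjusted p = 0.183) in the Nmd- strain and 0.53 (adjusted p = 0.067) in the Nmd+ strain by limma.

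PUP1 was decided by single arrays. It averaged 9.50, 9.21 and 9.95 late in the Nmd- courses against 9.38, 9.18 and 9.52, and 9.75, 9.50 and 10.06 in the Nmd+ courses against 9.56, 9.45 and 7.57. The low last value came from 1 array, Nmd+ course 3 at 2 min, on which PUP1 read 5.78 where the median of its course was 9.57. PUP1 also read 5.48 on the Nmd- course 3 array titled 6 min and 2.50 on the Nmd+ course 2 array titled 40 min, and no other member fell as far below its course. The late change of PUP1 was 0.19 in the Nmd- strain (adjusted p = 0.777) and 0.91 in the Nmd+ strain (adjusted p = 0.138) by limma, and without these arrays it was 0.19 in the Nmd- strain (adjusted p = 0.463) and 0.31 in the Nmd+ strain (adjusted p = 0.215).

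The alpha ring had the fewest calls by limma, 1 of 7 in the Nmd- strain and 0 of 7 in the Nmd+ strain. Over all probe sets 9.97% rose in the Nmd- strain and 11.1% in the Nmd+ strain. All 7 means were above 0 in each strain, as were 4832 of all 9275 in the Nmd- strain and 5020 in the Nmd+ strain. An unadjusted p under 0.05 was found for 5 of the 7 in the Nmd- strain, beside 3542 of all 9275. In the Nmd+ strain it was found for 7 of 7, beside 3817 of all. The medians were 0.36 in the Nmd- strain and 0.49 in the Nmd+ strain. PRE9, the 1 alpha subunit that yeast can do without, rose 1.51-fold in the Nmd- strain and stood at 1.32-fold in the Nmd+ strain (limma adjusted p 0.0354 in the Nmd- strain and 0.107 in the Nmd+ strain). PRE10 had the highest alpha mean, with 9.21, 9.23 and 9.49 late in the Nmd- courses against 8.73, 8.77 and 8.84, and 9.18, 9.46 and 9.64 in the Nmd+ courses against 8.87, 9.01 and 8.94. Late and baseline values of PRE10 did not overlap, with limma adjusted p of 0.0276 in the Nmd- strain and 0.0314 in the Nmd+ strain, but its 1.45-fold in the Nmd- strain and 1.40-fold in the Nmd+ strain were under the fold minimum. PRE5 had the lowest alpha mean, at 1.26-fold in the Nmd- strain and 1.24-fold in the Nmd+ strain (limma adjusted p 0.102 in the Nmd- strain and 0.117 in the Nmd+ strain).

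Over time, the subunit median swung at the same titled times as RPN4 in the Nmd- strain, and in the Nmd+ strain it climbed later and by less. RPN4 was at 0.86, 1.38 and 1.71 above baseline at 12, 20 and 35 min in the Nmd+ strain, where the median of the 37 subunit probe sets was at 0.14, 0.37 and 0.61. The median change of the lid in the Nmd- strain was -0.14 at 4 min, 0.58 at 6 min, -0.10 at 8 min, 0.69 at 10 min and -0.17 at 20 min, before it reached 0.98 at 60 min. In the Nmd+ strain the lid was at 0.01, 0.08, -0.09, 0.18 and 0.53 at these times and at 0.67 at 60 min. The other subcomplexes swung in the Nmd- strain at the same titled times, the base by less (0.39 at 6 min, -0.15 at 8 min and 0.45 at 10 min), and so did the 110 probe sets that the study lists as stable references (0.49, -0.08 and 0.45). The rank correlation of the subunit median with the score was 0.69, 0.84 and 0.95 in the Nmd- courses and 0.82, 0.76 and 0.94 in the Nmd+ courses, and that with RPN4 was 0.76, 0.79 and 0.73 in the Nmd- courses and 0.82, 0.84 and 0.90 in the Nmd+ courses. These are descriptions over 16 arrays of 1 course, which share a culture.

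**Figure D3:**
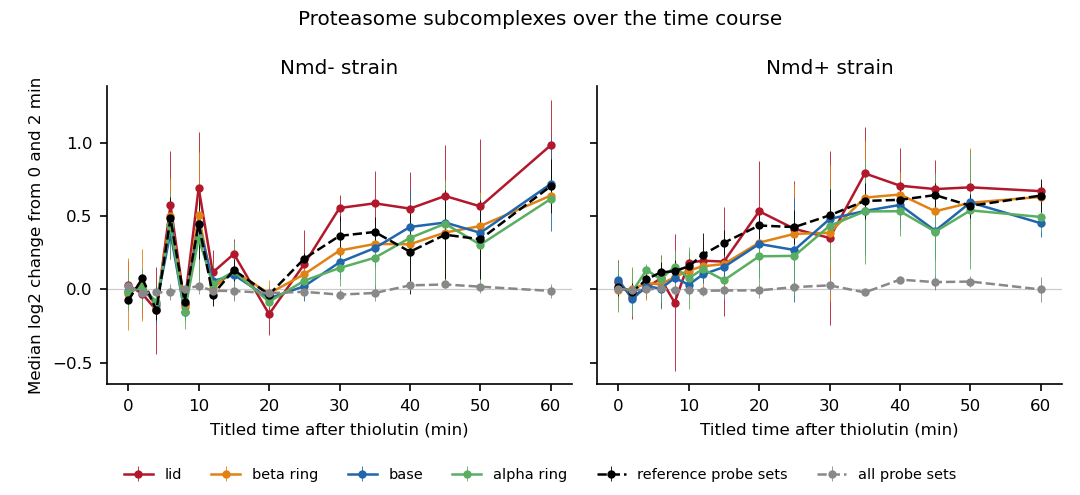
Median log2 change from 0 and 2 min (y axis) of each subcomplex, of the reference probe sets and of all probe sets, against the titled time in minutes (x axis), Nmd- left and Nmd+ right. Points are means of 3 courses and bars are their SD. In the Nmd- strain every subcomplex peaks at 6 and 10 min with a trough at 8 min, and in the Nmd+ strain the lid is at 0.53 by 20 min.

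Early (6, 8 and 10 min), 1 member rose in the Nmd- strain and none fell, where 4.59% of all probe sets rose and 5.65% fell. The call was RPT5 on 2638_s_at, with 7.39, 7.95 and 6.66 early against 7.06, 7.03 and 6.13 at 0 and 2 min (1.51-fold, SE 0.15 on the log2 scale, n = 3, limma adjusted p = 0.0342). RPN4 averaged 8.29, 8.42 and 8.66 early in the Nmd- courses against 7.91, 7.39 and 8.10 (log2 change 0.66, limma adjusted p = 0.12). By the adjusted p alone 2 members rose, beside 5.4% of all probe sets. The early median was 0.31 over the members and 0.02 over all probe sets, but it rests on the arrays titled 6 and 10 min, since without the Nmd- arrays titled 2, 6 and 10 min the median was -0.14, RPN4 was at -0.14 and no member rose. In the Nmd+ strain no member was called early by limma, and 0 of 38 had an unadjusted p under 0.05, where 0.496% of all probe sets rose, 0.852% fell and 14.3% had an unadjusted p under 0.05. No early change differed between the strains by limma (1 of 38 at an unadjusted p under 0.05), where 0.0431% of all probe sets differed upward, 0% downward and 12% had an unadjusted p under 0.05.

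In the middle window (20, 25 and 30 min) 4 members rose in the Nmd+ strain and none fell, beside 6.5% and 10.6% of all probe sets. RPN4 rose 2.59-fold there (log2 change 1.37, SE 0.16, courses 1.46, 1.02 and 1.64, limma adjusted p = 0.00189). The other calls were RPT2 (0.65, adjusted p = 0.00819), RPN11 (0.64, adjusted p = 0.0238) and RPN6 (0.59, adjusted p = 0.0117) by limma. By the adjusted p alone 10 rose, beside 8.37% of all. In the Nmd- strain no member was called by limma and 4 had an unadjusted p under 0.05, where 0.0323% of all rose, 0.0216% fell and 17.2% had an unadjusted p under 0.05. RPN4 was at 0.57 there, with courses of 0.57, 0.31 and 0.81. The 3 Nmd- values of RPN4 lay below the 3 Nmd+ values, but the difference did not pass (-0.81, SE 0.23, limma adjusted p = 0.253). No other member passed either (5 of 38 at an unadjusted p under 0.05), where 0% of all probe sets differed in either direction and 13.6% had an unadjusted p under 0.05. Without the Nmd- arrays titled 2, 6 and 10 min, with 0 min as the Nmd- baseline, 2 members rose in the Nmd- strain. In that fit 420 of the 9275 probe sets rose and 412 fell.

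Against the 110 reference probe sets in place of the average RNA, most of the late rise was gone. The plain mean of their log2 values was subtracted. The study states that these transcripts still decay slowly and corrected its reference line for that, which was not done here. The references themselves were up late by 0.28, 0.66 and 0.59 in the Nmd- courses and by 0.67, 0.72 and 0.78 in the Nmd+ courses on the deposited scale. Relative to them no member was called late in the Nmd- strain by limma (4 at an unadjusted p under 0.05, beside 58.6% of all probe sets). Over all probe sets 3.01% rose and 38.3% fell, and the median was 0.03 over the members and -0.49 over all. RPN13 was lower late in the Nmd- strain by the adjusted p alone (-0.45, limma adjusted p = 0.0422), short of the fold minimum. In the Nmd+ strain RPN4 was called higher and RPT5 on 2636_at lower, and the median was -0.17 over the members and -0.68 over all, where 3.06% of all rose and 57.2% fell. In the middle window of the Nmd+ strain the calls on this scale were also RPN4 higher and RPT5 on 2636_at lower, where 2.52% of all rose and 38.4% fell. By the limma adjusted p alone, short of the fold minimum, RPN13 (-0.55, 0.0133) and PRE5 (-0.42, 0.0297) were lower late in the Nmd+ strain. In its middle window RPN13 (-0.55, 0.0112), RPN10 (-0.47, 0.0235) and PRE6 (-0.51, 0.0381) were lower in the same way. Late, RPN4 stood 0.71 above the references in the Nmd+ strain (limma adjusted p = 0.0193) and 0.51 in the Nmd- strain (adjusted p = 0.082). RPN11 was at 0.08 in the Nmd+ strain and 0.27 in the Nmd- strain on this scale, and neither passed the test. The called late Nmd+ rises of PRE1, PRE2, RPN9, RPT1, RPT3 and 2 probe sets of PRE3 turned to changes between -0.12 and -0.01 on this scale. RPT5 on 2636_at, which averaged only 2.85 to 3.68 late in the Nmd+ courses, was at -0.22 late in the Nmd+ strain on the deposited scale (not called) and at -0.94 relative to the references, where the references' own rise of 0.67 to 0.78 is subtracted, and no other probe set of RPT5 was called on this scale.

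Between the strains before thiolutin had acted, no member was called by limma. At 0 min 2 of 38 had an unadjusted p under 0.05, where 4.28% of all probe sets were higher in the Nmd- strain, 0.701% lower and 18.8% had an unadjusted p under 0.05. RPN4 was at 7.93, 7.44 and 7.42 in the Nmd- strain against 7.81, 7.76 and 7.44 in the Nmd+ strain, which overlapped (log2 difference -0.07). Over the 16 times no member was called by limma either (1 of 38 at an unadjusted p under 0.05), where 2.64% of all were higher, 0.0755% lower and 10.2% had an unadjusted p under 0.05. All 3 Nmd- course means lay above the Nmd+ means for 1 member, RPN13 (10.3% of all probe sets), and below them for 1, the base ATPase RPT6 (6.19% of all). The median difference was -0.13 at 0 min and -0.20 over the course over the members, and -0.05 and -0.09 over all probe sets.

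RPN13 is a ubiquitin receptor of the base and the single member on the list of NMD-sensitive probe sets that the study drew from these arrays. At 0 min it had 9.96, 10.26 and 10.07 in the Nmd- strain against 9.44, 9.37 and 9.36 in the Nmd+ strain. RPN13 was the only member whose Nmd- values all lay above the Nmd+ values, as did 13.8% of all probe sets, and 5 members had all Nmd- values below, as did 10.8%. The difference of 1.63-fold missed the threshold (log2 0.70, SE 0.18, n = 3 each, limma adjusted p = 0.0699). It passed once a running median along the probe set number was taken out of each array (0.72, adjusted p = 0.0484), and the list of the study is not independent evidence of its direction. Without Nmd- course 1, 2 or 3 the difference was 0.77, 0.62 and 0.72 (limma adjusted p 0.117, 0.195 and 0.209). Within the arrays of 1 scan period the difference was 0.80 (2 arrays against 1) and 0.58 (1 against 1). Over the course RPN13 averaged 9.70, 9.98 and 9.98 in the Nmd- courses against 9.38, 9.43 and 9.47 in the Nmd+ courses (0.46, SE 0.15, limma adjusted p = 0.236). The late change of RPN13 was not called in either strain. It averaged 9.59, 10.29 and 10.28 late in the Nmd- courses against 9.89, 10.01 and 10.07 at 0 and 2 min, and 9.30, 9.80 and 9.56 in the Nmd+ courses against 9.36, 9.41 and 9.36. The lowest late RPN13 values of the Nmd- strain, 9.46 and 9.23 at 45 and 50 min in course 1, were on arrays whose markers went against the label. Without these arrays its late Nmd- change was 0.23 (adjusted p = 0.315), against 0.06 with them (adjusted p = 0.822) by limma.

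**Figure D4:**
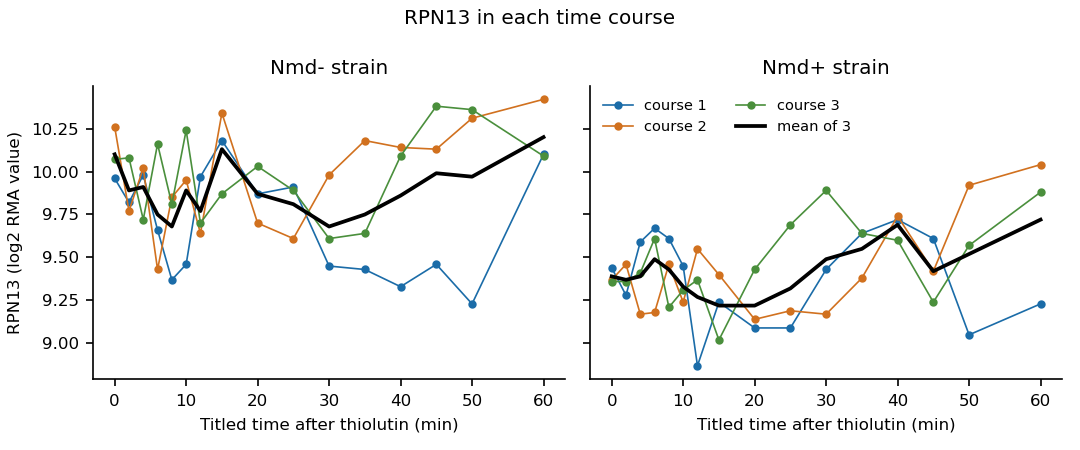
RPN13 log2 RMA value (y axis) against the titled time after thiolutin in minutes (x axis), Nmd- left and Nmd+ right, with the 3 courses as thin lines and their mean as the thick line. At 0 min the Nmd- courses start between 9.96 and 10.26 and the Nmd+ courses between 9.36 and 9.44.

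Across the 32 means of strain and titled time, the named probe sets outside the set that ran most like RPN4 were HSP82 and GPM2 (Pearson r 0.98 each), RNY1 (0.979), STI1 (0.973) and HSP78 (0.971). HSP82 encodes the heat-inducible Hsp90, STI1 its cochaperone, HSP78 a mitochondrial chaperone and RNY1 a ribonuclease, and GPM2 is the gene next to RPN4 on the chromosome. GPM2 rose 6.18-fold late in the Nmd- strain and 9.30-fold in the Nmd+ strain, and RPN4 itself 2.02-fold in the Nmd- strain and 2.69-fold in the Nmd+ strain. Of the subunit probe sets, 32 of 37 had an r over 0.5 with RPN4 and the median was 0.81, beside -0.02 over all probe sets. The lid was closest (median 0.89), followed by the beta ring (0.79), the base (0.78) and the alpha ring (0.75), and RPN11 was highest at 0.934. RPN13 (0.129), PUP1 (0.028) and RPT5 on 2636_at (-0.096), 2637_g_at (0.29) and 2638_s_at (0.447) were the exceptions. The 32 means share arrays and titled times, so r is given as a description.

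Genes that act around the proteasome were mixed on the deposited scale, on which 9.97% of all probe sets rose late and 11.1% fell in the Nmd- strain, and 11.1% rose and 14.3% fell in the Nmd+ strain. Of 14 ubiquitin and shuttle probe sets, 4 rose in the Nmd- strain and 7 in the Nmd+ strain late, and none fell. Relative to the reference probe sets 3.01% of all rose late and 38.3% fell in the Nmd- strain, and 3.06% rose and 57.2% fell in the Nmd+ strain. Of the ubiquitin and shuttle probe sets 1 was higher in the Nmd- strain on that scale, and 1 was higher and 1 lower in the Nmd+ strain. On the deposited scale UBI4, the polyubiquitin gene, rose 3.24-fold in the Nmd- strain and 3.61-fold in the Nmd+ strain. UBI4 and UBA1, also among the ubiquitin and shuttle genes, are on the list of stable references of the study. DDI1, a ubiquitin receptor of the shuttle class, rose 1.64-fold in the Nmd- strain and 2.05-fold in the Nmd+ strain. UBC4, a ubiquitin-conjugating enzyme, stood at 1.45-fold in the Nmd- strain, which was not a call, and rose 1.83-fold in the Nmd+ strain. The 25 assembly and associated probe sets stand for 17 genes. Of these probe sets 8 rose and 2 fell in the Nmd- strain and 6 rose and 2 fell in the Nmd+ strain. Relative to the references 1 was higher and 4 lower in the Nmd- strain and 1 higher and 8 lower in the Nmd+ strain. The shares lower over all probe sets were 38.3% in the Nmd- strain and 57.2% in the Nmd+ strain. TMA17, an assembly chaperone of the regulatory particle, rose 1.90-fold in the Nmd- strain and 3.13-fold in the Nmd+ strain. The genes that fell on the deposited scale were POC4, a chaperone of the alpha ring, to 0.488 of its baseline in the Nmd- strain and 0.483 in the Nmd+ strain, and CIC1, to 0.360 in the Nmd- strain and 0.256 in the Nmd+ strain. Cic1 was described as a proteasome adaptor and also acts in making ribosomes. Of the genes that turn Rpn4 over, MUB1, a partner of the ubiquitin ligase Ubr2, rose 1.65-fold in the Nmd- strain and stood at 1.42-fold in the Nmd+ strain, and UBR2, UBR1 and RAD6 were not called.

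The activators of RPN4 and the target lists of these factors also held late calls on the deposited scale. On that scale 9.97% of all probe sets rose and 11.1% fell in the Nmd- strain, and 11.1% rose and 14.3% fell in the Nmd+ strain. Of the 4 activators of RPN4, YAP1 rose in both strains (1.72-fold in the Nmd- strain and 1.82-fold in the Nmd+ strain), and HSF1, the heat shock factor, rose 1.77-fold in the Nmd+ strain and stood at 1.14-fold in the Nmd- strain. Of 14 probe sets of Hsf1 targets 6 rose in the Nmd- strain and 10 in the Nmd+ strain, with median changes of 0.99 in the Nmd- strain and 1.29 in the Nmd+ strain. SSA4, a chaperone of the Hsp70 family, rose 5.67-fold in the Nmd- strain and 8.66-fold in the Nmd+ strain. Of 11 probe sets of Yap1 targets 3 rose and 1, the drug transporter gene FLR1, fell in the Nmd- strain (to 0.438-fold) and 6 rose in the Nmd+ strain, with OYE3, an NADPH oxidoreductase, at 5.39-fold in the Nmd- strain and 12.9-fold in the Nmd+ strain. Of 19 probe sets of Pdr1 and Pdr3 targets, which stand for 7 genes, 11 rose in the Nmd- strain and 10 in the Nmd+ strain. RSB1, a sphingoid base transporter among them, was at 2.85-fold in the Nmd- strain and 9.63-fold in the Nmd+ strain. Relative to the references 3.01% of all probe sets rose late and 38.3% fell in the Nmd- strain, and 3.06% rose and 57.2% fell in the Nmd+ strain. The Pdr1 and Pdr3 targets had 4 higher and 1 lower in the Nmd- strain on that scale and 3 higher and 4 lower in the Nmd+ strain. The references include SSA2, SIS1 and FES1 of the Hsf1 targets and TRX2 and AHP1 of the Yap1 targets, so these lists were partly set against themselves. Relative to the references the Hsf1 targets had 6 higher and 2 lower in the Nmd- strain and 7 higher and 3 lower in the Nmd+ strain, and the Yap1 targets 2 higher and 1 lower in each strain. Of the activators of RPN4, 1 was lower in the Nmd- strain and none was called in the Nmd+ strain. Other large complexes were set beside the proteasome. Of the 8 CCT chaperonin probe sets none was called by limma in the Nmd- strain (3 at an unadjusted p under 0.05) and CCT5 and CCT7 fell in the Nmd+ strain. Of the 14 V-ATPase probe sets none was called by limma in either strain (2 at an unadjusted p under 0.05 in each). Of all 9275 probe sets, 3542 had an unadjusted p under 0.05 late in the Nmd- strain and 3817 in the Nmd+ strain. Relative to the references, on which scale 38.3% of all probe sets fell in the Nmd- strain and 57.2% in the Nmd+ strain, 5 of 8 CCT probe sets fell in the Nmd- strain and 7 of 8 in the Nmd+ strain, and 6 of 14 V-ATPase probe sets fell in the Nmd- strain and 11 of 14 in the Nmd+ strain. On the deposited scale the CCT median in the Nmd- strain was -0.11 and the V-ATPase median -0.05, beside 0.53 for the 37 subunit probe sets. In the Nmd+ strain they were -0.31 and -0.14, beside 0.55. No probe set of these lists differed between the strains in its late change by limma, where 0% of all probe sets did. An unadjusted p under 0.05 was found for 9 of 19 Pdr1 and Pdr3 target probe sets and 2 of 4 activators. The same held for 2 of 11 Yap1 targets, 0 of 14 Hsf1 targets, 2 of 8 CCT and 0 of 14 V-ATPase probe sets, beside 12% of all. The lists were not tested as sets.

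**Figure D5:**
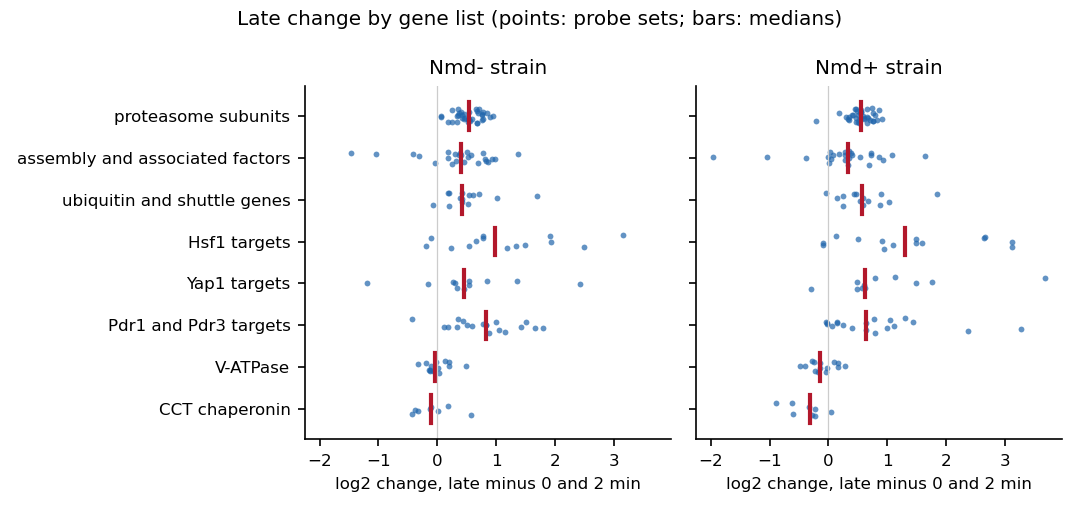
Late log2 change (45, 50 and 60 min minus 0 and 2 min, x axis) by gene list (y axis), Nmd- left and Nmd+ right, with 1 point per probe set and a bar at each median. The proteasome subunits lie close together around 0.53 in the Nmd- strain and 0.55 in the Nmd+ strain, the Hsf1 targets spread more widely to the right, and the CCT and V-ATPase medians lie left of 0.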

How the data were processed

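Total RNA of 96 culture samples, 2 strains by 16 times by 3 courses, was primed with oligo(dT) and hybridized to Affymetrix YG-S98 arrays. The deposited values are log2 signals that the authors made by robust multi-chip average (RMA, version not given in the sources used here), which adjusts background, equalizes the arrays and summarizes each probe set. They were read as log2: the methods write a natural log, but the highest value, 14.16, could not arise from 16-bit intensities on that scale, whose ceiling would be 11.09. Strain, time and replicate came from the sample titles. Where the source names disagreed (all arrays upf1-, and 0 min for those titled 2 min), the titles were kept. The scanner files of the authors supplied the scan period and the chip lot, and their intensities were not used here.

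Of 9335 probe sets, 60 array controls were left out. Probe sets took their genes from the annotation given for the array (6504 with 1 gene, 328 with several, 2443 with none), and neighbouring genes came from a RefSeq table. The members and gene lists were chosen with earlier results of these data known. No untreated courses and no measure of RNA per cell were used here.

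Each course gave 1 value per probe set and window, tested in 1 limma 3.58.1 fit (R 4.3.3; lmFit, eBayes) over all 6 courses, with Benjamini-Hochberg adjustment over 9275 probe sets. The strains were compared at 0 min on 6 arrays and over the course on the mean of 16 times. The 3 courses per strain limit the precision. The named members were RPN4, RPN11, the active-site subunits, RPN13, the highest and the lowest late change of each subcomplex, and every member called where at most 5 were. RPN3, RPN5, RPN9, RPN10, RPN12, RPT1, RPT3, RPT6, PRE1 and PRE9 were named after their values were seen. Tables and figures were made with Python 3.11.15, numpy 2.4.6, pandas 2.3.3, scipy 1.17.1 and matplotlib 3.10.9. The fit was tested on simulated data.

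Replicate numbers were checked as a pairing of the strains. The deviations of same-numbered courses correlated at 0.728, 0.576 and 0.827 for the course means and 0.268, 0.328 and 0.261 for the middle change. For the late change the correlations were 0.296, 0.038 and 0.179. The p-values given in the Results for differences between the strains come from the limma fit without this pairing. A fit with the replicate number as a block was run as an alternative. With the replicate block, 0 members were called between the strains, as without it. Arrays were scanned in 3 periods, replicate 1 mostly in the first and replicates 2 and 3 mostly in the second. Alternatives were the baseline, the late window, the scaling, a filter on mean log2 values under 5, a running median over 301 probe sets, the spread model, scan period and chip lot as blocks, single arrays, the fold minimum, and leaving out courses or arrays.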

Additional observations from a re-analysis of the deposited data

How the results depend on the processing

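The scaling moved the most calls. Relative to the 110 reference probe sets, the count of members called higher was 0 early and 0 late in the Nmd- strain (main 1 and 16), and 1 in the middle and 1 late in the Nmd+ strain (main 4 and 15), with 1 called lower in each of these Nmd+ windows. On that scale the late change of PRE3 was -0.089 (11022_at, Nmd-), -0.01 (11020_i_at, Nmd+) and -0.072 (11022_at, Nmd+). That of PUP1 was -0.316 (Nmd-), of PRE2 -0.118 (Nmd+), of PRE10 -0.234 (Nmd+) and of RPN7 -0.301 (Nmd+). The called Nmd+ rises of PRE1, RPN9, RPT3 and RPT1 were at -0.11, -0.07, -0.07 and -0.05. RPN13 was at -0.446 and -0.547 in the Nmd- and Nmd+ strains, PRE5 at -0.175 and -0.415 and PUP3 at -0.132 and -0.192. RPT5 was at -0.254 (2636_at, Nmd-), and in the Nmd+ strain at -0.385 (2637_g_at), -0.254 (2638_s_at) and -0.194 (8454_at).

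The 1 early Nmd- call was 0 with no replicate block, scan period or chip lot as a block, the running median, single arrays with a fixed replicate block, and without the arrays whose markers went against the label, those titled 2, 6 and 10 min or those with a low PUP1 value. It was 3 with 0 min alone as baseline and 2 with no fold minimum, beside 654 and 501 of all probe sets. The middle Nmd- count was 2 without the arrays titled 2, 6 and 10 min, and the middle Nmd+ count was 1 with 0 min alone and 10 with no fold minimum. Over all probe sets these counts were 420, 398 and 776. The late Nmd- count was 26 with 60 min alone, and the late Nmd+ count 27 with no fold minimum. Over all probe sets these were 1227 and 1274. At 0 min 1 member (RPN13) was called once the running median was taken out. Leaving out 1 course at a time gave 0 to 2 early calls in the Nmd- strain, 2 to 8 middle calls in the Nmd+ strain, and late 6 to 16 in the Nmd- strain and 4 to 16 in the Nmd+ strain. Over all probe sets these ranges of higher calls were 139 to 471, 440 to 821, 366 to 885 and 654 to 1054. Of RPN4, the early Nmd- change was -0.138 without the arrays titled 2, 6 and 10 min, the early Nmd+ change -0.259 without Nmd+ replicate 3 and at most 0.437 without 1 course, the late difference 0.036 with 60 min alone, and the difference at 0 min 0.005 and 0.014 without Nmd- replicates 2 and 3, -0.241 without Nmd- replicate 1 and 0.067 with the scan period as a block. The late Nmd- change of RPN13 was -0.046 and -0.01 without Nmd- replicates 2 and 3, 0.238 without Nmd- replicate 1, -0.043 with 0 min alone and -0.043 without the arrays titled 2, 6 and 10 min, and that of RPT5 2636_at in the Nmd+ strain 0.001 with 0 min alone. The cause of these shifts was not tested. With the replicate block the strains still differed in 0 members, while over all probe sets 598 were higher and 66 lower in the Nmd- strain over the course, against 245 and 7 without it. The 3 courses per strain and, for PUP1, single low arrays limit what can be called.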
